A study of Mus musculus with 8 samples.

Results

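The genes described here are 10 neural transcription factor genes of the mouse, 6 of the SOX family (Sox1, Sox3, Sox4, Sox11, Sox12 and Sox21) and 4 of the class III POU family (Pou3f1, Pou3f2, Pou3f3 and Pou3f4). They were taken by name from tables of 35494 loci (1 h) and 35541 loci (8 h and 24 h), and each name occurred at 1 locus per table. In the representative transcript of each of the 10 genes (GENCODE M21, GRCm38) there is 1 exon and no intron. The libraries are polyadenylated RNA from retinal organoids at day 6 of differentiation, with 2 samples in each of 4 groups: untreated (0 h), and treated with dTAG-13 at 125 nM for 1, 8 or 24 h.

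The same cells were used in every group, the untreated one included. They carry the Rx:GFP reporter and an FKBP12F36V-HA degron fused to the C-terminus of METTL3 from both endogenous alleles, and were grown in GMEM with KSR, non-essential amino acids, β-mercaptoethanol, sodium pyruvate and AGN. METTL3 is the catalytic subunit of the complex that places N6-methyladenosine (m6A) on mRNA. dTAG-13 brings the tagged protein to a ubiquitin ligase for degradation, and the series follows the transcriptome over the hours after that. Per the labels, compound was added on days 5 and 6 and the samples were collected together. The labels name neither a solvent control nor a clone number, and do not say whether the 2 samples of a group came from separate differentiations. Each gene has a single deposited value for a condition, pooled from the 2 samples, and 2 bounds around it, so spread between samples cannot be seen and no test across samples was possible.

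SOX proteins bind DNA through an HMG box and usually act with a partner factor, of which POU proteins are the best known. SoxB1 proteins (Sox1, Sox2 and Sox3) keep neural cells in the progenitor state, Sox21 is a SoxB2 repressor that opposes them, and the SoxC proteins (Sox4, Sox11 and Sox12) promote the survival and differentiation of neural precursors, retinal ganglion cells among them. The Pou3f factors (also called Oct6, Brn2, Brn1 and Brn4) act in neural progenitors and young neurons. In mRNA, m6A is most frequent in long exons and near stop codons, and exon junction complexes keep it away from exon junctions, so an mRNA from a gene with no intron has no junction that would exclude the mark. It is best known for shortening the life of the mRNA that carries it.

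The end of the coding sequence is therefore shown for the members that hold a common form of the m6A consensus just before the stop codon. GGACT, searched on the transcript strand, was found within the last 100 bases of the coding sequence of 5 of the 10 members, counted by its first base from the end of the stop codon. The same was true of 12.9% of the 10954 protein-coding genes tested in the 24 h table and of 12.7% of the 284 other single-exon genes among them. Matches after the stop codon were left out of this count. Pou3f1 holds GGACT at 7 and at 66 bases after the end of its stop codon and is not among the 5. For each of the 5 the site nearest the stop codon is printed below 5′ to 3′ on the transcript strand with the GGACT in capitals, and Sox12 holds another in the same window, at 84 bases. In Sox11 and Sox12 the printed sites lie at the same distance from the end of the stop codon, 45 bases, in Sox3 at 40 bases, in Sox4 at 84 and in Pou3f2 at 82. Sox11 and Sox12 are both SoxC genes and their printed bases before the GGACT are nearly the same. They are therefore not independent entries in the count of 5. These coordinates are GRCm38, all on the minus strand: chrX:60892104-60892128 (Sox3), chr12:27341252-27341276 (Sox11), chr2:152396785-152396809 (Sox12), chr13:28951769-28951793 (Sox4) and chr4:22486862-22486886 (Pou3f2).
Sox3: cagggcgccgGGACTgcggtcaatg
Sox11: tgatcgcgggGGACTggctggaggc
Sox12: tgatcgcaggGGACTggcgctcgtc
Sox4: tcgaattcccGGACTattgcacgcc
Pou3f2: cctcccggagGGACTctgccgggcg
A match is a run of letters and not a measured methylation site, since the files hold no m6A measurement.

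The members differed widely in how many such matches they hold. Sox12 had the highest density, with 12 in a transcript of 4453 bases (2.69 per kilobase), above 96.6% of the tested genes. Sox4 had 9 (1.88 per kilobase) and Sox11 had 11 in 8311 bases (1.32 per kilobase), of which 7 lie in a 3′ UTR that makes up 83.7% of the transcript. Sox21 was at the other end, with 1 match in 3799 bases (0.263 per kilobase), and Pou3f3 had 2 in 7409 bases (0.270 per kilobase). The median of the tested genes was 1.05 per kilobase. The 2 members called changed after dTAG-13, as given further on, differ in this respect, Sox21 having 1 match and Sox11 having 11. Whether the number of matches goes with the response was not tested.

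**Figure D1:**
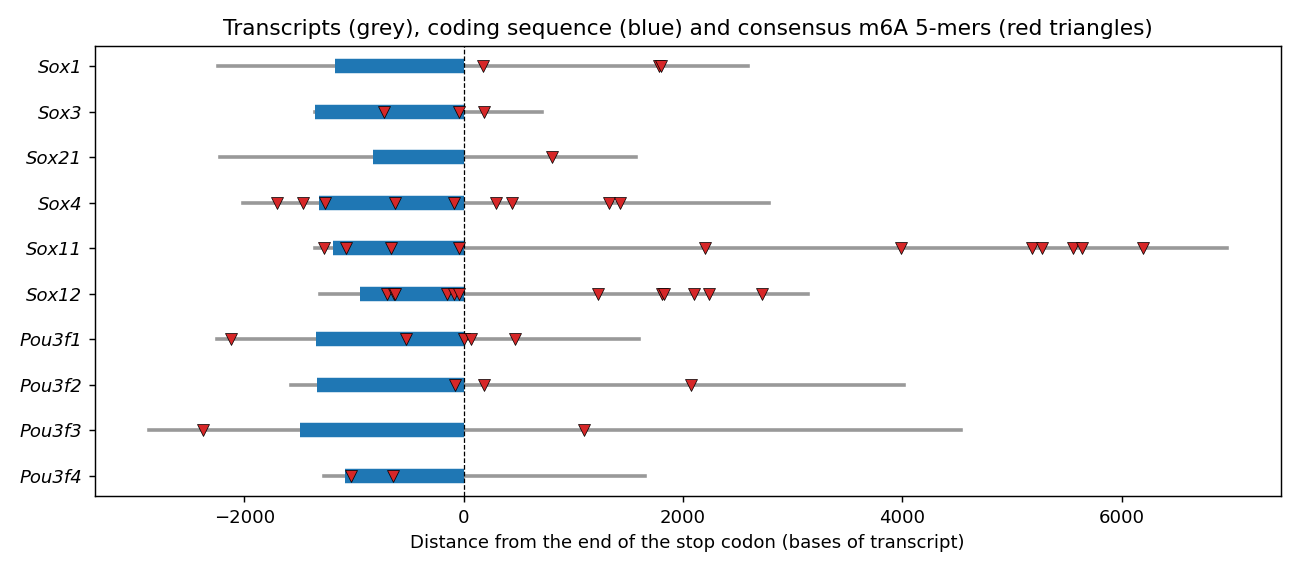
Representative transcripts of the 10 genes (grey line) with the coding sequence (blue) and each GGACT (red triangles), against distance in bases from the end of the stop codon (dashed line). GGACT is a common form of the m6A consensus, and other forms were not searched. Sox3, Sox11, Sox12, Sox4 and Pou3f2 hold a match within 100 bases before that line, while the single match of Sox21 lies in its 3′ UTR.

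Because SOX and POU factors can act on each other's genes, the promoters were searched for the octamer bound by POU proteins, ATGCAAAT, on both strands. RefSeq (GRCm38.p6) promoter sequences, 250 bases before to 50 after the gene start, were at hand for 8 members. The octamer was found in 2 of them, Sox1 and Sox12, against 1.74% of 32851 promoters. In Sox12 its first base lies 195 bases before the gene start (chr2:152398224-152398251, minus strand), and in Sox1 it is base 19 after the start (chr8:12395527-12395554, plus strand). These starts are those of RefSeq. The GENCODE transcript of Sox1 begins further upstream, at chr8:12395295, so the Sox1 octamer lies inside that transcript. The octamer is in capitals.
Sox1: ccagcgcgccATGCAAATcaccgccgcc
Sox12: cgattgggagATGCAAATgctgagttct
The SOX motif AACAAAG, also on both strands, was in none of the 8 and in 5.85% of all promoters. Binding was not measured.

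The targeted gene and the depth of the tables were checked first. Mettl3 mRNA was 19.4 FPKM (a level per transcript length, scaled by sequencing depth) at 0 h and 17.0 at 24 h with overlapping intervals. The degron acts on the protein, so this value does not test the depletion. Estimated counts, which the authors scaled, summed to 31361518 in the lowest and 32562075 in the highest condition. A locus was tested when it reached 1 FPKM in 1 of the 2 conditions, and called when 2 criteria were met: a ratio of at least 1.5-fold (0.58 on the log2 scale), taken after adding 0.1 FPKM to each value, and deposited intervals that lie apart. The level of these intervals is not given in the sources used here, and the median half-width was 2.16 to 2.17 SDs of the estimated count. All 7 markers of retinal progenitors and the eye field were present, with a summed 559 FPKM at 0 h in the 24 h table, against 310 for 7 pluripotency genes, 52.8 for 5 surface ectoderm markers, 21.9 for 3 of 4 telencephalon markers, 10.4 for 4 of 6 neuronal markers, 3.81 for 4 endoderm markers, 2.02 for 4 neural crest markers and 0.831 for 4 mesoderm markers.

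Untreated organoids held the SOX members at much higher levels than the POU members. In the 24 h table the order at 0 h was Sox11 at 53.3 FPKM (interval 43.1 to 63.6), Sox4 at 47.2 (38.2 to 56.2) and Sox3 at 43.4 (34.9 to 51.9), whose intervals overlapped. Sox12 followed at 24.4 (19.7 to 29.1), apart from its neighbours on both sides. Sox1, at 10.5 (8.37 to 12.6), and Sox21, at 9.47 (7.48 to 11.5), overlapped each other and were apart from the rest. Pou3f3 reached 1.38 (1.05 to 1.71) and overlapped Pou3f1 at 0.998 (0.693 to 1.30). Pou3f4 and Pou3f2, at 0.503 and 0.501, were the lowest of the 10, on 60.2 and 89.6 estimated counts. The 6 SOX genes summed to 188 FPKM and the 4 POU genes to 3.38. Sox2, the SoxB1 gene outside the set and also a single-exon gene, had 108 FPKM (85.7 to 129) at the larger of the 2 loci that carry its name.

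**Figure D2:**
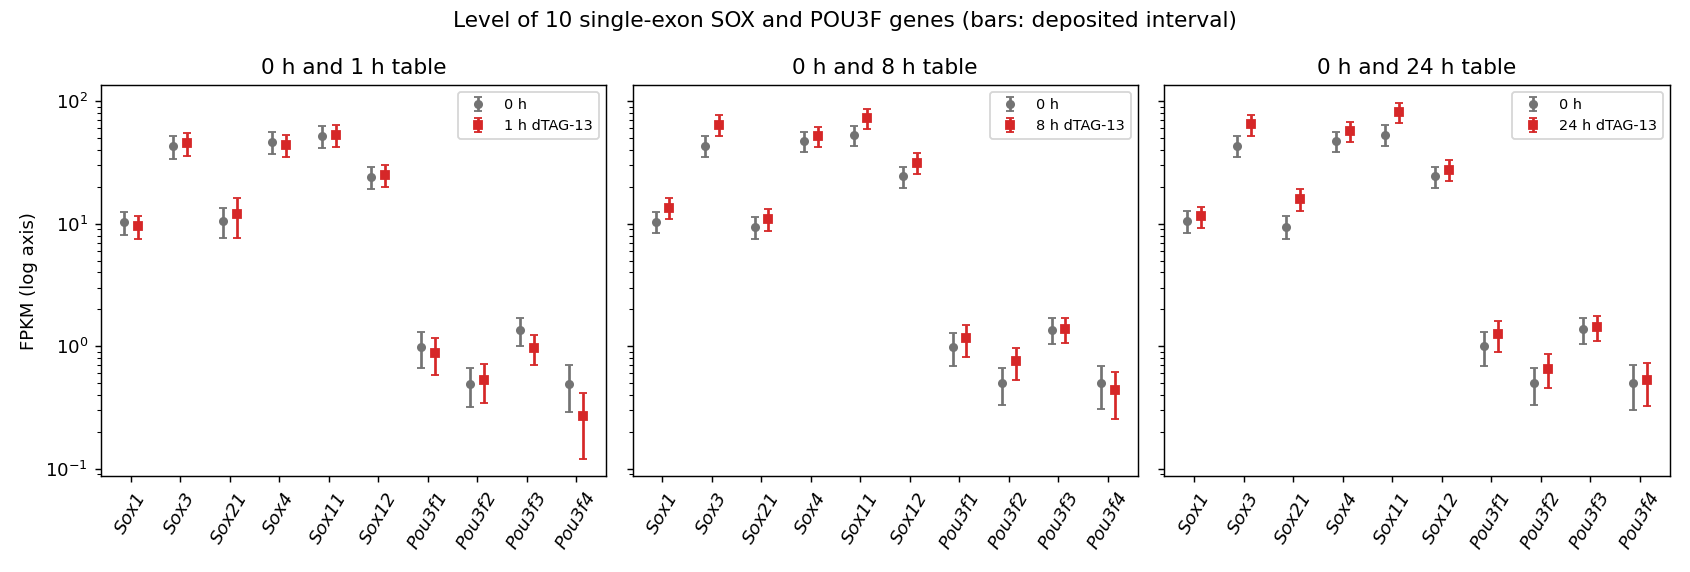
FPKM (log axis) of the 10 genes at 0 h (grey circles) and after 1, 8 or 24 h of dTAG-13 (red squares), each panel from 1 table and each bar the deposited interval. The SOX genes lie between 9.44 and 81.7 FPKM and the POU genes below 2 FPKM, and the red and grey bars are apart for Sox3 at 8 h and for Sox3, Sox11 and Sox21 at 24 h.

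After 1 h of dTAG-13 none of the members was called, against 0.402% of 13690 tested loci. Of the 10 genes, 5 had a log2 ratio above 0 and 5 below, with a median of -0.02 (all tested loci 0.01). The 6 SOX genes stayed between -0.11 and 0.18. The POU genes spread more widely, at -0.44 for Pou3f3 (1.36 to 0.971 FPKM) and -0.69 for Pou3f4 (0.495 to 0.269 FPKM). Their intervals overlapped, and Pou3f1, Pou3f2 and Pou3f4 were under 1 FPKM in both conditions and so were not tested at this time. The Pou3f4 ratio rests on 59.9 and 32.7 estimated counts.

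At 8 h none of the 8 tested members was called, where 4.43% of 13825 loci were called and 3.49% were called higher, although 9 of the 10 ratios lay above 0. The median of the 10 was 0.29, beside 0.01 over all tested loci, and Pou3f4 was the exception at -0.17. Of the SOX genes, Sox3 had the highest ratio. It had 43.3 FPKM (34.9 to 51.6) at 0 h and 64.3 (52.1 to 76.6) at 8 h. Its intervals did not overlap, but the ratio of 0.57 (SE 0.20, from the deposited variances) is 1.49-fold and just under the threshold. Without a fold criterion Sox3 would be the 1 member called, where 3.56% of tested loci would be called higher.

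At 24 h, 2 of the 8 tested members were called, both higher, Sox11 and Sox21. That is 25.0% of the tested members, where 3.83% of 13910 tested loci were called higher. The median of the 10 was 0.29, beside 0.02 over all tested loci, and each of the 10 ratios was above 0, from 0.06 to 0.75. Sox3 met the interval criterion alone, a rule under which 3 of the 8 tested members and 3.86% of tested loci would be called higher. In bulk RNA a change in the share of cells that express a gene and a change in RNA per cell cannot be told apart. The 3 comparisons use the same 0 h libraries, so the ratios at 1, 8 and 24 h are not independent of one another.

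**Figure D3:**
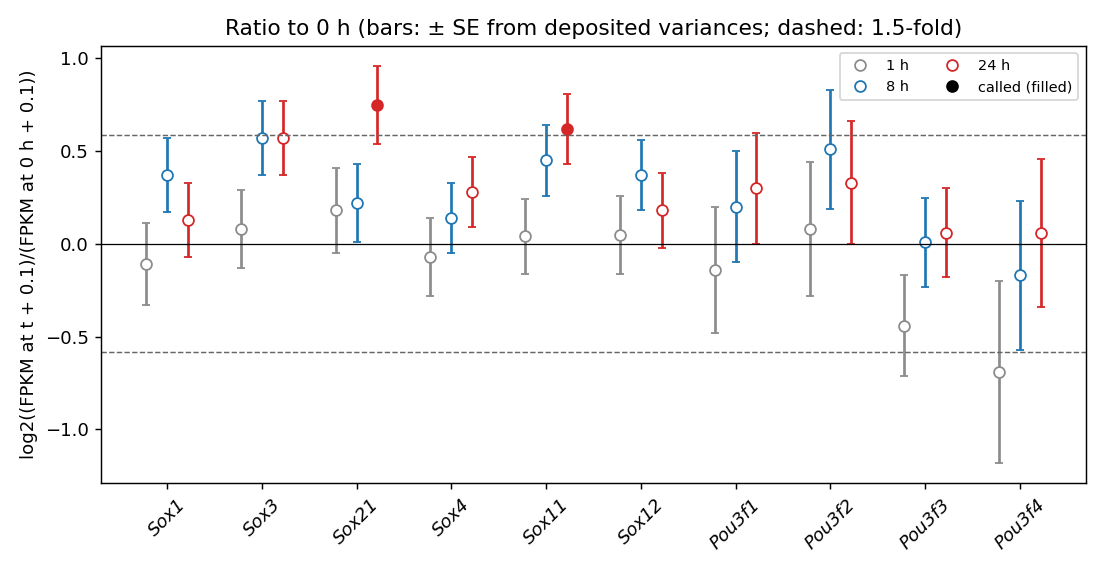
Log2 ratio of FPKM to 0 h, with 0.1 added to both values, at 1, 8 and 24 h for each gene. Bars are ± 1 SE from the deposited variances of the counts, without the added 0.1, and so are too wide for the POU genes. Dashed lines mark 1.5-fold and filled points were called. The 2 filled points are Sox21 (0.75) and Sox11 (0.62) at 24 h, and both Sox3 points at 8 and 24 h (0.57) lie just under the line.

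Of the SoxB1 genes, Sox3 had intervals apart at 8 and 24 h and Sox1 at no time. Whether their ratios differ was not tested. Sox3 (chrX:60891366-60893430, minus strand) encodes a factor of the earliest neural progenitors. In the 1 h table it had 42.7 FPKM (33.9 to 51.6) untreated and 45.3 (35.9 to 54.7) treated. The values were 43.3 and 64.3 in the 8 h table, as given above, and 43.4 (34.9 to 51.9) and 64.6 (52.1 to 77.1) in the 24 h table. Its intervals thus overlapped at 1 h and were apart at 8 and at 24 h, with the same ratio of 0.57 at both. Sox1 (chr8:12395295-12400126, plus strand), a marker of the neural plate, had 10.3 and 9.56 FPKM at 0 and 1 h, 10.4 and 13.5 at 0 and 8 h, and 10.5 and 11.5 at 0 and 24 h. The intervals overlapped each time, with ratios of -0.11, 0.37 and 0.13 and an SE of 0.20 to 0.22. Sox2 had ratios of 0.12, 0.38 and 0.37, from 107 FPKM (85.8 to 129) to 140 (112 to 168) in the 8 h table, and was not called at any time.

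Sox21, the SoxB2 repressor (chr14:118233232-118237030, minus strand), rose at 24 h. Its level was 9.47 FPKM (7.48 to 11.5) before and 16.0 (12.7 to 19.2) after treatment. This is a log2 ratio of 0.75 (SE 0.21) or 1.68-fold, and lies above 93.5% of tested loci. It is the largest ratio among the 10. At 8 h the values were 9.44 (7.48 to 11.4) and 11.0 (8.73 to 13.2), a ratio of 0.22, and at 1 h 10.5 (7.65 to 13.4) and 12.0 (7.59 to 16.3), a ratio of 0.18, with overlapping intervals at both times. The 0 h FPKM of the same libraries differed 1.116-fold between tables for Sox21, where the next largest such difference among members was 1.029-fold, for Sox11. The estimated counts of Sox21 at 0 h were 1117, 1134 and 1122 in the 1, 8 and 24 h tables. The difference thus lay in the FPKM and not in these counts. The Sox21 values belong to a deposited locus, chr14:118233232-118261199, that is wider than the gene. How many reads fell outside the single-exon transcript was not measured. An exon of the non-coding gene Gm4675 overlaps Sox21 on the other strand, and the strandedness of counting is not given. Gm4675 had 0.837 FPKM at 0 h and 1.11 at 24 h, and how reads were divided between the 2 genes was not measured here.

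Of the SoxC genes, Sox11 was called and Sox4 and Sox12 were not. Sox11 (chr12:27334264-27342574, minus strand), needed for eye and neuronal development, rose at 24 h. Its level was 53.3 FPKM (43.1 to 63.6) in untreated and 81.7 (66.3 to 97.2) in treated organoids, and the log2 ratio was 0.62 (SE 0.19). It had the highest FPKM of the 10 in both conditions. At 8 and 24 h its deposited locus was chr12:27330955-27342902, wider than the gene. The 8 h table had 53.1 (43.1 to 63.1) and 72.6 (59.0 to 86.1), a ratio of 0.45 with overlapping intervals. At 1 h the ratio was 0.04, with 51.8 FPKM in untreated and 53.1 in treated organoids. At 1.53-fold the 24 h ratio is just inside the threshold, as that of Sox3 at 1.49-fold is just outside it, so the different calls of these 2 genes do not show a different response.

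In the 8 h table Sox4 (chr13:28948919-28953713, minus strand) had 47.0 FPKM (38.2 to 55.9) untreated and 52.0 (42.2 to 61.8) treated, and in the 24 h table it had 47.2 and 57.3 (46.4 to 68.3). Its ratios were -0.07, 0.14 and 0.28 at 1, 8 and 24 h, each with overlapping intervals. The non-coding Gm26735 overlaps Sox4 on the other strand at 0.234 FPKM at 0 h and 0.350 at 24 h. The deposited locus of Sox4 at 8 and 24 h, chr13:28943048-28953713, is wider than the gene. Sox12 (chr2:152393611-152398063, minus strand), the SoxC gene with the mildest known roles, had ratios of 0.05, 0.37 and 0.18. In the 8 h table its FPKM was 24.3 (19.7 to 29.0) untreated and 31.5 (25.5 to 37.5) treated, and in the 24 h table it was 24.4 and 27.6 (22.3 to 33.0). Sox1 and Sox12 thus had a higher ratio at 8 h than at 24 h, while Sox4, Sox11 and Sox21 had a higher one at 24 h. Whether these times differ was not tested.

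The POU genes were near the limit of what was tested, and none was called at any time. Pou3f1, known from the epiblast and from Schwann cells, had ratios of -0.14, 0.20 and 0.30, from 0.998 to 1.25 FPKM (0.896 to 1.61) in the 24 h table. Its deposited locus, chr4:124528924-124660655, is far wider than its transcript of 3849 bases. Pou3f2, a factor of neuron production, had the highest POU ratio at 8 h, 0.51, from 0.499 FPKM (0.333 to 0.665) to 0.753 (0.534 to 0.973). Without the added 0.1, its log2 ratio of counts was 0.59 (SE 0.32). Pou3f2 stayed under 1 FPKM in each table and was not tested. Pou3f3, which acts in forebrain and kidney, had 1.37 and 1.38 FPKM in the 8 h table and 1.38 and 1.44 in the 24 h table, ratios of 0.01 and 0.06. Pou3f4, a gene of the inner ear and hypothalamus, had 0.501 and 0.436 FPKM in the 8 h table and 0.503 and 0.528 in the 24 h table. Their SEs at 8 and 24 h, 0.24 to 0.40, are large beside the threshold of 0.58.

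The members were then set beside other genes of like structure. Of 284 other single-exon protein-coding genes tested at 24 h, 48 were called higher (16.9%) and 10 lower (3.52%), with a median log2 ratio of 0.33. Of the 7975 genes with 6 or more exons, 142 were higher (1.78%) and 117 lower (1.47%), with a median of -0.03. At 8 h the single-exon genes had 43 of 282 called higher (15.2%), with a median of 0.29, and genes with 2 exons had 86 of 451 (19.1%), with a median of 0.42. The medians of the 10 members, 0.29 at both times, were thus near those of single-exon genes as a whole, and the 2 calls at 24 h are too few to set them apart. At 1 h the single-exon genes had a median of 0.01, with 0 of 277 called higher and 1 lower.

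**Figure D4:**
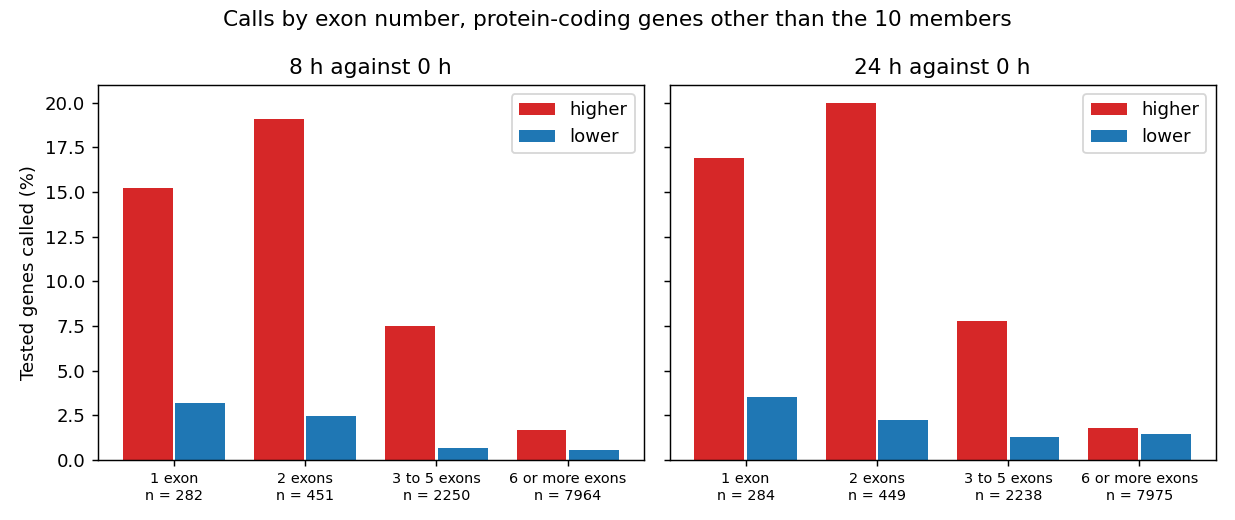
Percent of tested protein-coding genes called higher (red) or lower (blue) at 8 and 24 h of dTAG-13, by the number of exons of the representative transcript, without the 10 genes described here. Genes with 1 or 2 exons were called higher in 15.2% to 20.0% of cases, and genes with 6 or more exons in 1.68% and 1.78%.

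Other genes of the SOX and POU families were not called. Over all tested loci 0.402%, 4.43% and 5.48% were called at 1, 8 and 24 h. Of 14 other SOX genes, most of them with introns, 8 were tested at each time and 0 were called, with medians of 0.06, 0.26 and 0.24 at 1, 8 and 24 h. Of 11 other POU genes, 4, 4 and 5 were tested and 0 called, with medians of -0.02, -0.03 and -0.01. With so few genes, 0 calls do not set these families apart from all loci or from the members. Single ratios reached 0.77 among the SOX genes at 24 h (1.06 to 1.88 FPKM), where 7 of 8 tested ratios lay above 0. Among the POU genes they reached 1.11 at 8 h (0.950 to 2.17 FPKM), where 2 of 4 lay above 0. Both had overlapping intervals. Among 16 genes of neural progenitors, 16 were tested, and those called were Gli2 and Gli3, the effectors of Hedgehog signalling. Gli2 was called higher at 8 h, with 7.11 FPKM (5.54 to 8.67) untreated and 11.4 (9.06 to 13.7) treated, and at 24 h (0.65). Gli3 was called higher at 8 h, with 30.1 (24.2 to 36.1) untreated and 48.2 (38.7 to 57.7) treated, and was not called at 24 h (0.56). Thus 2 of 16 were called higher at 8 h, beside 3.49% of all tested loci, and 1 of 16 at 24 h, beside 3.83%. The median of that list was -0.03 at both times. Of 16 neuronal and proneural genes, several of them reported targets of SoxC or Pou3f proteins, 13 were listed under their own name and 8 tested. None was called at any time, with medians of 0.01, 0.07 and 0.01. With 8 genes and the shares given above, this does not set the list apart from all loci.

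Markers of cell types moved over the same hours. At 24 h, 3.83% of all tested loci were called higher and 5.48% were called in either direction. The 7 eye field markers summed to 559 FPKM at 0 h and 748 at 24 h, with 2 of 7 called higher, Rax and Lhx2, and 6 of 7 ratios above 0. The 7 pluripotency genes summed to 310 and 202, with 2 of 7 ratios above 0 (Zfp42 and Klf4) and 2 called lower. Those were Tdgf1 (22.8 to 10.9 FPKM) and Dppa5a, whose fall from 200 to 109 FPKM makes up most of the drop in the sum. The 3 telencephalon markers listed summed to 21.9 and 22.1 with none called. The 4 neuronal markers listed summed to 10.4 and 8.82 with none called, and none of them was listed at 0. The 4 endoderm markers summed to 3.81 and 5.58 and the 5 surface ectoderm markers to 52.8 and 35.1, where Krt8 was called lower (-0.76). The 4 mesoderm markers summed to 0.831 and 1.20 and the 4 neural crest markers to 2.02 and 1.75, with none called. The part of these shifts in the ratios of the SOX genes was not tested.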

How the data were processed

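The submitters' processing notes name Cufflinks 2.2.1, Cuffdiff and the mm10 build. The aligner, the strandedness of counting and the level of the intervals are not given in the sources used here. Per the file headers, the authors deposited 3 pairs of tables, each with 0 h and 1 treated time: FPKM values that have 2 bounds each, and estimated counts that have a variance. Both hold 1 column per condition, combined over 2 samples, so neither edgeR nor DESeq2 was run. Each table was normalized by the authors on its own, and ratios were formed within tables.

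Samples were grouped by their titles. Ratios are on the log2(FPKM + 0.1) scale, treated minus 0 h, so a change in a gene of low FPKM is understated. The SE of a ratio came from the deposited variances of the 2 estimated counts. It is that of the ratio of counts, without the added 0.1. For genes of low FPKM it is therefore too wide for the ratio it is set beside. Loci were called by fold and interval as stated above, which gives no p-value. Where several loci carried a name, the one with the highest 0 h FPKM was used. Coordinates given for a whole gene are those of the annotation. The deposited loci of Sox4, Sox11, Sox21, Pou3f1, Pou3f3 and Pou3f4 are wider. Overlapping genes were searched for within the annotated span only. The representative transcript (GENCODE M21 basic set) was chosen by APPRIS rank and then by coding length, and exon classes used genes with a unique name. The rule was tried on simulated tables whose changes were larger than those called in members here. It was therefore not tested for changes near the 1.5-fold threshold. Python 3.11.15, pandas 2.3.3 and numpy 2.4.6 were used.

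The members, the gene lists and the tests were chosen with earlier results of these data known. The rule for naming took the 10 members, Sox2, Mettl3, genes that overlap a member, and genes of the lists called at 8 or 24 h. Alternatives varied the pseudocount, the filter, the unit, the fold and interval criteria, centring and overlapping loci.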

Additional observations from a re-analysis of the deposited data

How the results depend on the processing

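Of 308 ratios of single members under the alternatives, 303 kept their direction and their side of the threshold. Most of this is built in. Only the settings of pseudocount, unit and centring alter a ratio. The same pseudocount added to both values cannot change its direction, so only unit and centring could do so. Members under 1 FPKM could be called only where no filter was set. Pou3f3 at 8 h turned from 0.01 to -0.0003 when ratios were centred on the median of tested loci. The number of members called was 0 at 1 h under the settings tried. At 8 h it was 0, and 1 (Sox3) with intervals and no fold criterion. At 24 h it was 2, and 3 (Sox3 added) with intervals and no fold criterion, 0 with a 2-fold threshold, and 1 (Sox11) without members that overlap an expressed locus, which leaves out Sox21. The median over members ranged from -0.07 to 0.04 at 1 h, 0.21 to 0.37 at 8 h and 0.17 to 0.43 at 24 h, where the settings with only members of at least 1 FPKM (chosen after seeing the data) or 5 FPKM hold fewer genes. No paired analysis was possible because the tables hold 1 column per condition, combined over the replicates, and for the same reason no replicate could be left out. Few counts limit the POU genes, of which Pou3f4 had 32.7 estimated counts at 1 h.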
